A study of Homo sapiens with 8 samples.

Results

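The transcriptional cyclin-dependent kinases (CDKs) act on RNA polymerase II rather than on the cell cycle engine. Here 10 genes of this group were followed, namely CDK7, CDK8, CDK9, CDK12, CDK13 and CDK19, the cyclins CCNT1, CCNT2 and CCNH, and the P-TEFb inhibitor HEXIM1. They were chosen by name, as every probe that the array annotation gives to one of these genes. This gave 15 of 50599 probes on the array, which cover 10 of 15317 genes tested. The cells were HCT-116, a human colorectal carcinoma line, grown in DMEM with serum, and each RNA was read on a 1-colour (Cy3) Agilent array whose probes are 60 bases long. WT cells were the untreated parental line. WT+NU6102 cells were the same line after a 24 h exposure to 20 µM NU6102, a purine inhibitor of CDK1 and CDK2. CDK2-/- cells were an untreated commercial knockout of CDK2 in this line. R50 cells were a line grown from the outset, and still kept, in 50 µM NU6102, so that the R50 RNA reflects selection together with the presence of the drug. Each group had 2 arrays, described as biological replicates, and neither engineered nor selected cells were given as more than 1 line.

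Transcription by RNA polymerase II passes through steps that these kinases control. CDK7 with cyclin H (CCNH) and MNAT1 forms the CDK-activating kinase, which is part of the initiation factor TFIIH and phosphorylates the polymerase's C-terminal domain as well as the activation loop of other CDKs. CDK8 and CDK19 are alternative kinases of the Mediator kinase module. CDK9 with cyclin T1 or T2 forms P-TEFb, which releases paused polymerase, and HEXIM1 holds P-TEFb inactive on the 7SK small nuclear RNA. CDK12 and CDK13 pair with cyclin K and phosphorylate the polymerase during elongation.

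Levels are given as log2 signal relative to the 75th percentile of the same array, so that 0 is the brightness of the spot at that percentile. A level is compared between groups for the same probe and never between probes, since brightness also depends on the probe. A probe was called well above background where the scanner software marked its spots so, and this held for all 15 probes on every one of the 8 arrays. The number of such spots was 32376 to 36206 per array among 58717 that are not controls, and no spot was saturated. All groups were fitted together in limma, and a gene was called higher or lower in a comparison where its brightest probe passed a Benjamini-Hochberg adjusted p under 0.05 over all tested probes. The arrays of WT and WT+NU6102 cells shared slide 2, and those of CDK2-/- and R50 cells shared slide 1. Only 2 of the 6 comparisons therefore stay within a slide, that of WT+NU6102 with WT and that of R50 with CDK2-/-. In the rest, slide cannot be told apart from group. As a check of the labels, CDK2 read -0.78 and -0.77 in WT, -1.58 and -1.53 in CDK2-/-, -1.11 and -1.10 in R50, and -0.46 and -0.43 in WT+NU6102, and its fall in CDK2-/- was 0.78 (adjusted p = 0.00027). Whether its probe lies in the deleted part is not given in the sources used here. Of 11 colon epithelial markers 9 cleared background on every array, whereas VIL1 and CDH17 did so on none. The summed linear signal of these markers, in units of the 75th percentile spot, was 548 and 559 in WT, 596 and 616 in WT+NU6102, 689 and 713 in CDK2-/- and 866 and 855 in R50. Of the defining fibroblast genes COL1A2, COL3A1, LUM, PDGFRB, THY1 and FAP were well above background on none of the arrays, and 1 of 8 in that list was on all. The corresponding counts were 3 of 6 leukocyte and 2 of 5 endothelial genes, and no summed signal of these 3 lists exceeded 0.662 on any array. Their part in the results was not tested. In bulk RNA, fewer cells that carry a transcript and less of it per cell cannot be told apart.

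The 24 h exposure to NU6102 moved most of the group upwards. Relative to WT, 8 of 10 genes were called higher and 1 lower, where 28.9% of all tested genes were called higher and 24.2% lower. The genes that rose were CDK7, CDK8, CDK9, CDK12, CDK13, CCNT1, CCNH and HEXIM1. The gene that fell was CDK19, and CCNT2 did not pass the test. The median change over the 10 genes was 0.38, beside 0.04 over all tested genes, and no member moved by 1 log2 unit or more. With each array centred on its median in place of its 75th percentile, the median change of all genes in this comparison moved by 0.114, and 9 members were then called higher and 0 lower.

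Fewer members were called in CDK2-/- and R50 cells. Relative to WT, CDK2-/- cells had 1 member called higher, HEXIM1, against a background of 19.2%, and 1 called lower, CDK7, against 16.7%. In R50 cells 2 members were called higher, CDK19 and HEXIM1, against a background of 12.2%, and 1 lower, CDK12, against 15.4%. These shares of 10 genes are each close to the background or rest on 1 or 2 genes. The median change over the members was 0.01 in CDK2-/- and 0.10 in R50, beside 0.02 and -0.04 over all tested genes. The split in CDK2-/- depended on the scaling, with 1 higher and 2 lower after quantile normalization and 0 higher and 2 lower after median centring. A moderated F-test over the 4 groups at an adjusted p under 0.001 was passed by 3 of 10 members, CDK7, CDK19 and CCNT1, where 27.4% of all tested genes passed.

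**Figure D1:**
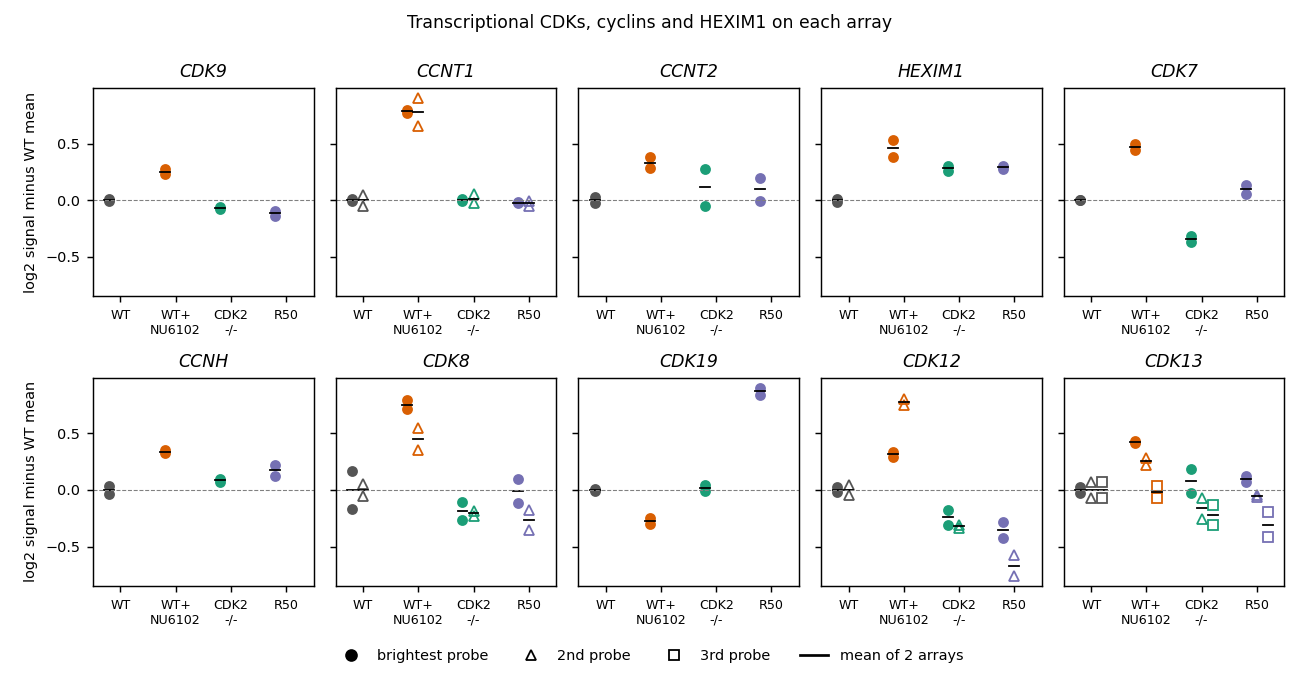
Log2 signal of each member on each of the 8 arrays minus the mean of the same probe in WT (vertical axis), by group (horizontal axis). Filled circles are the brightest probe, open triangles and squares the other probes of a gene, and horizontal bars the mean of 2 arrays. WT+NU6102 lies above WT for 9 of the 10 brightest probes, and CDK19 lies below it there and 0.87 above it in R50.

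**Figure D2:**
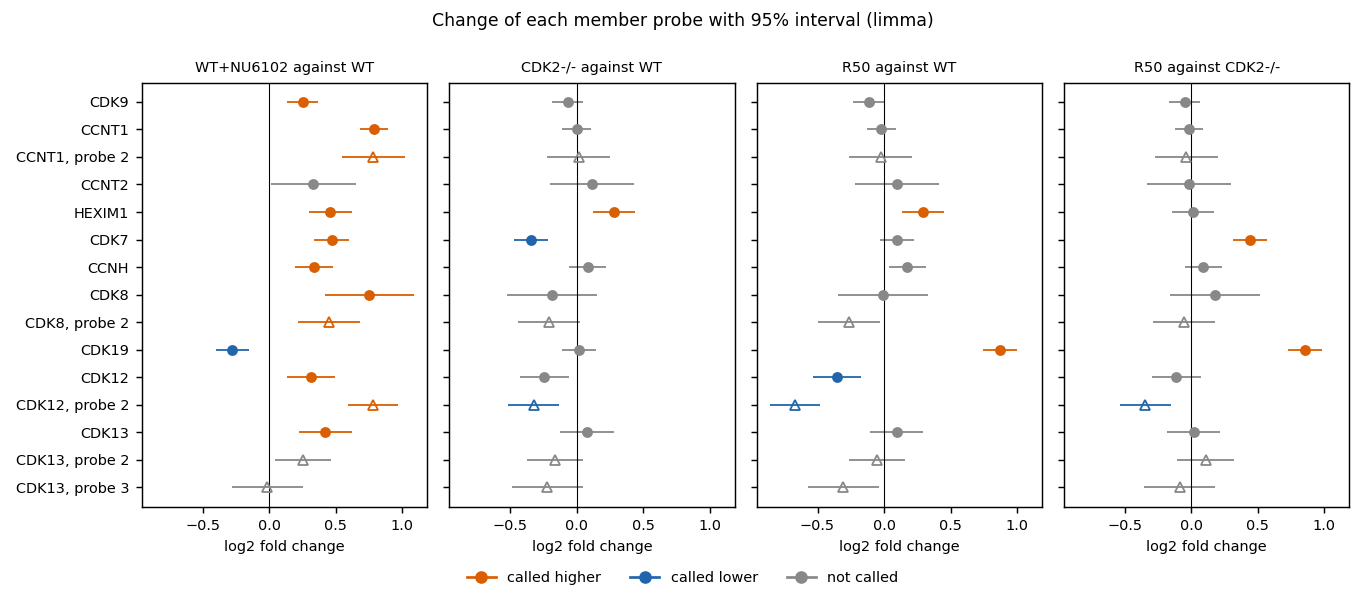
Log2 fold change of each member probe (horizontal axis) with its 95% confidence interval from limma, in 4 comparisons. Circles are the brightest probe of a gene and triangles its other probes, with colour marking those called higher or lower. Most points of WT+NU6102 against WT are to the right of 0, whereas in the other 3 panels points lie on both sides of 0, with CDK19 farthest to the right in both R50 panels.

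Within P-TEFb the cyclin CCNT1 rose in WT+NU6102 and was called in neither of the other groups against WT. Its brightest probe lies at chr12:49082536-49082595 of hg19 on the minus strand. It read 0.88 and 0.87 in WT, 1.67 and 1.65 in WT+NU6102, 0.88 and 0.87 in CDK2-/- and 0.86 and 0.85 in R50. The WT+NU6102 arrays stood apart from the other 6, which lay within a few hundredths of each other. The rise over WT was 0.79 (SE 0.043, adjusted p = 0.00019), or 1.72-fold. A second probe at chr12:49087431-49087490 gave a rise of 0.78 (SE 0.095, adjusted p = 0.0017), reading -0.30 and -0.20 in WT and 0.40 and 0.66 in WT+NU6102. CCNT1 was not called in CDK2-/-, where the change was -0.00027 with a 95% confidence interval of -0.11 to 0.11, nor in R50, where it was -0.02 with an interval of -0.13 to 0.09. The second probe gave 0.01 and -0.03 in the same order. In the order of levels WT+NU6102 came first, and the test did not separate WT, CDK2-/- and R50, although both R50 arrays of the brightest probe read just below the WT and CDK2-/- arrays. A stretch of each CCNT1 probe is shown from 5′ to 3′, because the 2 probes read the same change from separate places in the gene. Capitals mark the longest run that each shares with the probe of any other gene, on either strand, which was 15 and 16 bases of 60.
CCNT1 brightest probe, bases 31 to 60: ggtacaattttgTGGTGAGATTTTTGTctg
CCNT1 second probe, bases 31 to 60: cacccatctAATCATCATCATCATCataat

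CDK9, the kinase of the complex, also rose in WT+NU6102. It read 2.24 and 2.22 in WT, 2.50 and 2.46 in WT+NU6102, 2.17 and 2.15 in CDK2-/- and 2.14 and 2.09 in R50, each value being a mean over up to 10 spots. Its probe lies at chr9:130552256-130552315 of hg19. The WT+NU6102 arrays were above all others, and those of WT, CDK2-/- and R50 followed in that order without overlap. The rise over WT was 0.25 (SE 0.046, adjusted p = 0.0075), a 1.19-fold change. It was no longer called after quantile normalization (0.10, adjusted p = 0.14). The changes of -0.07 in CDK2-/- (adjusted p = 0.33) and -0.12 in R50 (adjusted p = 0.13) did not pass the test.

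CCNT2, the alternative cyclin partner of CDK9, did not pass the test in any comparison. It read -2.63 and -2.68 in WT, -2.37 and -2.27 in WT+NU6102, -2.38 and -2.70 in CDK2-/- and -2.46 and -2.66 in R50. The WT+NU6102 arrays were above both WT arrays, while CDK2-/- and R50 spanned most of the range between. The difference of 0.33 from WT in WT+NU6102 (95% confidence interval 0.02 to 0.65, adjusted p = 0.084) was not called. Without CDK2-/- replicate 1 (adjusted p = 0.042) or CDK2-/- replicate 2 (adjusted p = 0.047) it was called, with the same value. Without CDK2-/- replicate 1 the difference of CDK2-/- from WT+NU6102 was called as well (-0.38, adjusted p = 0.046). The changes in CDK2-/- and R50 were 0.11 (interval -0.20 to 0.43) and 0.10 (interval -0.22 to 0.41).

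HEXIM1, the inhibitor of P-TEFb, was the member called higher than WT in all 3 other groups. Its probe lies at chr17:43229082-43229141 of hg19. It read -0.85 and -0.82 in WT, -0.30 and -0.45 in WT+NU6102, -0.53 and -0.58 in CDK2-/- and -0.56 and -0.53 in R50. Both WT arrays were below the other 6. The rise was 0.46 in WT+NU6102 (SE 0.064, adjusted p = 0.0028), 0.28 in CDK2-/- (adjusted p = 0.024) and 0.29 in R50 (adjusted p = 0.029). The difference between the last 2 was not called (0.01 for R50 against CDK2-/-, adjusted p = 0.90), and the differences from WT+NU6102 were not called either, at -0.16 for R50 (adjusted p = 0.082) and -0.18 for CDK2-/- (adjusted p = 0.065). Both were called after median centring (-0.31, adjusted p = 0.0091, and -0.35, adjusted p = 0.0056) and without WT+NU6102 replicate 2 (-0.24, adjusted p = 0.037, and -0.25, adjusted p = 0.032). That of CDK2-/- was also called after quantile normalization (-0.22, adjusted p = 0.032) and in the authors' log2 values (-0.20, adjusted p = 0.045). The 3 comparisons use the same 2 WT arrays. The calls in CDK2-/- and R50 were also lost in fits with 1 array fewer, while the changes kept a similar size. Without either CDK2-/- array the change in R50 itself stayed at 0.29. In CDK2-/- the call was lost without WT replicate 1, WT replicate 2, CDK2-/- replicate 1 or CDK2-/- replicate 2 (adjusted p from 0.084 to 0.11, change from 0.26 to 0.31), and after median centring it was 0.22 and not called (adjusted p = 0.052). In R50 it was lost without either WT, either CDK2-/- or either R50 array (adjusted p from 0.058 to 0.12, change from 0.28 to 0.31).

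The upstream sequences of CCNT1 and HEXIM1 are given because these genes differ in the groups where they were called higher than WT. CCNT1 was called in WT+NU6102 and HEXIM1 in all 3 groups. The HEXIM1 calls in CDK2-/- and R50 were lost in fits with 1 array fewer, as described, and came from comparisons between slides. The RefSeq promoter table of GRCh38.p14 matched all 10 members and holds several start sites for 4 of them, 15 promoters in all, each with 250 bases before and 50 after the start. Short motifs were searched on both strands, no motif containing another, and capitals mark their matches. The GC box (GGGCGG) was in 12 of the 15 member promoters and in 45% of all 35116 promoters of this length. The CCAAT box (CCAAT) was in 4 of 15 and 34.6% of all, and the E-box (CACGTG) in 4 of 15 and 7.26% of all. Promoters of the same gene can overlap, so a site can be counted more than once. Both CDK7 promoters hold the same E-box and the same GC box, and overlapping CDK19 promoters share a GC box. An ETS site (CCGGAAG) was in 2 of 15 and 10.3% of all. The TATA box (TATAAA) was in 1 of 15, that of HEXIM1 at 29 bases before the start, and in 4049 of all 35116. The CCNT1 promoter shown, the more upstream of those listed, holds 1 match each of the GC box, CCAAT box, E-box and ETS site. Both are printed 5′ to 3′ on the gene's strand and end at the base before the start site.
CCNT1, chr12:48716708-48716957, minus strand: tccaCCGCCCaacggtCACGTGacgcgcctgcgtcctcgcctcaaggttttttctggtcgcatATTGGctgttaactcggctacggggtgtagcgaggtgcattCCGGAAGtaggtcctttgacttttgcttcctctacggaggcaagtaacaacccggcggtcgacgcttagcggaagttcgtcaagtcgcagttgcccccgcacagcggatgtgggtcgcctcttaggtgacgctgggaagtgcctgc
HEXIM1, chr17:45148225-45148474, plus strand: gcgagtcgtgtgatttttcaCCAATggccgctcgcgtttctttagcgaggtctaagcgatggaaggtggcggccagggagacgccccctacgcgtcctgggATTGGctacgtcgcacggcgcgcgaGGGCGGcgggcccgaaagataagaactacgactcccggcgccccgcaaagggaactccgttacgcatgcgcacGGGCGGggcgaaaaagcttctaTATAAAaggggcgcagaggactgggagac

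In the CDK-activating kinase, CDK7 rose in WT+NU6102 and fell in CDK2-/-. Its probe lies at chr5:68572420-68572479 of hg19. It read 3.39 and 3.39 in WT, 3.83 and 3.88 in WT+NU6102, 3.07 and 3.02 in CDK2-/- and 3.45 and 3.52 in R50. The arrays of the groups did not overlap, with WT+NU6102 first, then R50, WT and CDK2-/-. The rise was 0.47 (SE 0.052, adjusted p = 0.0012), and CDK7 fell by 0.34 in CDK2-/- (adjusted p = 0.0061). R50 and WT, neighbours in that order, were not separated by the test (0.10, 95% confidence interval -0.03 to 0.23). The rise from CDK2-/- to R50, within 1 slide, was 0.44 (adjusted p = 0.0023). These 3 calls held without any single array, with changes of 0.44 to 0.49, -0.37 to -0.32 and 0.40 to 0.48.

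Its cyclin, CCNH, also rose in WT+NU6102 and was not called in CDK2-/-. The CCNH probe maps to chr5:86690271-86690889 of hg19, a span of 619 bases for a 60-base probe, whose bases are thus not contiguous in the genome. It read 3.30 and 3.37 in WT, 3.66 and 3.69 in WT+NU6102, 3.41 and 3.43 in CDK2-/- and 3.56 and 3.46 in R50. The groups did not overlap, with R50 second in the order. The rise in WT+NU6102 was 0.34 (SE 0.056, adjusted p = 0.0052), and after quantile normalization it was 0.12 and not called (adjusted p = 0.10). The changes of 0.08 in CDK2-/- (adjusted p = 0.31) and 0.17 in R50 (adjusted p = 0.080) did not pass the test, although that in R50 was called after quantile normalization (0.22, adjusted p = 0.031).

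The 2 Mediator kinases were called in opposite directions in WT+NU6102. CDK8 read -1.34 and -1.005 in WT, -0.46 and -0.38 in WT+NU6102, -1.28 and -1.44 in CDK2-/- and -1.28 and -1.08 in R50. WT+NU6102 stood above the rest, and WT, CDK2-/- and R50 overlapped. The rise of CDK8 in WT+NU6102 was 0.75 (SE 0.14, adjusted p = 0.0069) by the brightest probe, at chr13:26978425-26978484 of hg19, and 0.45 (SE 0.094, adjusted p = 0.012) by the second, at chr13:26927961-26928017. Its changes in CDK2-/- and R50 were -0.19 and -0.01 by the brightest probe and -0.21 and -0.26 by the second, and none was called.

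CDK19 went the other way under NU6102 and showed the highest rise of any member in R50. Its single probe lies at chr6:110931236-110931295 of hg19 on the minus strand. It read 1.86 and 1.87 in WT, 1.61 and 1.56 in WT+NU6102, 1.91 and 1.85 in CDK2-/- and 2.77 and 2.70 in R50. The R50 arrays were above all others, those of WT and CDK2-/- overlapped, and those of WT+NU6102 were lowest. CDK19 rose by 0.87 in R50 (SE 0.051, adjusted p = 0.00059), or 1.83-fold, and its absolute change ranked at the 95.4th percentile of all tested genes in that comparison. It rose by 0.86 over CDK2-/- within 1 slide (adjusted p = 0.00026), and the change in CDK2-/- itself was 0.02 (interval -0.11 to 0.14). The fall in WT+NU6102 was 0.28 (adjusted p = 0.0074), and after median centring it was -0.16 and not called (adjusted p = 0.10). The R50 call held without any single array, with a change from 0.84 to 0.90.

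The CDK19 probe and the upstream sequence of the gene are shown because, by brightest probes, this member had the widest range of group means, 1.15. The probe shares 14 bases with a probe of another gene, in capitals. The upstream sequence, before the first of 3 start sites in the RefSeq table (GRCh38.p14), holds 3 CCAAT boxes, at 162, 155 and 80 bases before the start, and 1 GC box at 60, all in capitals.
CDK19 probe, bases 29 to 58: tccttcttGAAATGACTGTTAAaactaaaa
CDK19, chr6:110815856-110816105, minus strand: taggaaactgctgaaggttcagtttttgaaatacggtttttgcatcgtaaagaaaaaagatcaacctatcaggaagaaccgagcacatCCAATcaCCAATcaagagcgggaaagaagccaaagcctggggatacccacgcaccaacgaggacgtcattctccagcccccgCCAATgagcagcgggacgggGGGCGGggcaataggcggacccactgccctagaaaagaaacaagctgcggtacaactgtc

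The genes with the profile most like that of CDK19 were picked by Pearson correlation over the 8 arrays among 13907 genes that were well above background on every array. They were APBB2 (r = 0.998), TMC5 (r = 0.996), SOX8, AFAP1 and FGFBP1 (each r = 0.995). The 8 points are 4 pairs of replicates, so the correlation describes the pattern of the groups, and it was the basis of the choice. All 5 were lower in WT+NU6102 than in WT and higher in R50. In R50 the change was 0.61 for APBB2, 0.85 for TMC5, 0.93 for SOX8, 0.95 for AFAP1 and 2.39 for FGFBP1. FGFBP1, a secreted carrier of fibroblast growth factors, thus had the same shape with a larger amplitude, at 1.37 and 1.35 in WT and 3.81 and 3.69 in R50.

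**Figure D3:**
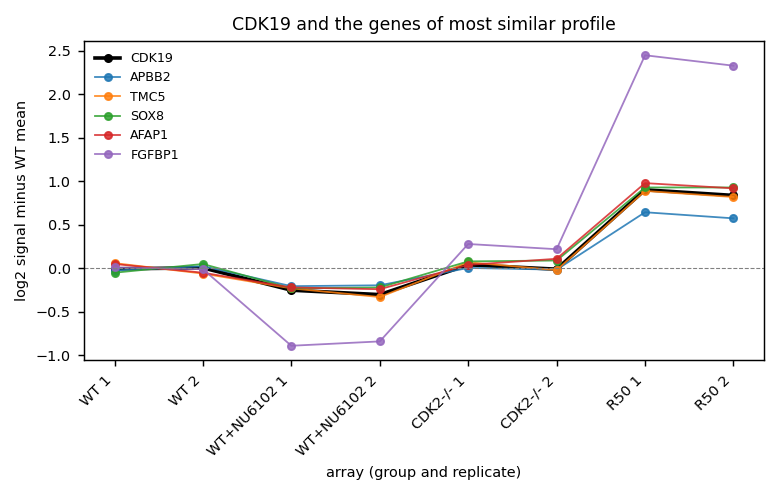
Log2 signal minus the WT mean (vertical axis) on each of the 8 arrays (horizontal axis) for CDK19, in black, and the 5 genes correlated with it most highly. All 6 lines dip in WT+NU6102 and peak in R50, and FGFBP1 reaches the highest values, 2.39 above WT on average.

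CDK12 was the member lowered in R50. Its brightest probe, at chr17:37690454-37690513 of hg19, read -0.98 and -1.02 in WT, -0.71 and -0.66 in WT+NU6102, -1.18 and -1.30 in CDK2-/- and -1.43 and -1.28 in R50. WT+NU6102 was highest and WT second, and CDK2-/- and R50 overlapped. The rise in WT+NU6102 was 0.32 (SE 0.073, adjusted p = 0.017) and the fall in R50 was 0.36 (adjusted p = 0.024). The second probe, at chr17:37687510-37687569, gave larger changes. It read -1.35 and -1.44 in WT, -0.64 and -0.59 in WT+NU6102, -1.70 and -1.73 in CDK2-/- and -2.16 and -1.97 in R50, with no overlap between groups. By that probe the changes were 0.78 in WT+NU6102 (adjusted p = 0.00085), -0.32 in CDK2-/- (adjusted p = 0.027) and -0.67 in R50 (adjusted p = 0.0045), and R50 was 0.35 below CDK2-/- (-0.35, adjusted p = 0.020). By the brightest probe the change in CDK2-/- was -0.24 and missed the threshold (adjusted p = 0.055), and that between R50 and CDK2-/- was -0.11 (adjusted p = 0.29).

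The CDK12 calls of the brightest probe were lost in several fits with 1 array fewer, while the changes kept their direction. The rise in WT+NU6102 was not called without WT replicate 1, WT replicate 2, WT+NU6102 replicate 1 or WT+NU6102 replicate 2 (adjusted p from 0.054 to 0.084, change from 0.29 to 0.34). The fall in R50 was not called without WT replicate 1, WT replicate 2, R50 replicate 1 or WT+NU6102 replicate 2 (adjusted p from 0.0504 to 0.11, change from -0.38 to -0.28). Stretches of both CDK12 probes are given because the pair disagreed in size, each with its longest run shared with another gene's probe, 13 bases, in capitals.
CDK12 brightest probe, bases 17 to 46: tgcaagtagAACTTCTATTAGCttatgcca
CDK12 second probe, bases 11 to 40: ctacaagagTCCCACCAAGAGGgggaagag

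CDK13, the paralogue of CDK12, had 3 probes that did not read the same change. The brightest, at chr7:40134550-40134609 of hg19, read 0.04 and -0.02 in WT, 0.42 and 0.44 in WT+NU6102, 0.19 and -0.02 in CDK2-/- and 0.08 and 0.13 in R50. WT+NU6102 was above the rest, and the CDK2-/- arrays spanned those of R50 and one of WT. The rise in WT+NU6102 was 0.42 (SE 0.080, adjusted p = 0.0085). Without WT replicate 2 it was 0.39 and not called (adjusted p = 0.051). The second probe, at chr7:40102633-40102692, gave 0.25 (adjusted p = 0.059) and the third, at chr7:39990943-39991002, gave -0.017 (adjusted p = 0.91). The third probe ends in a GCA repeat and shares 17 bases, in capitals here, with the probe of another gene, the longest such run among the 15. No CDK13 probe was called in CDK2-/- or R50 against WT, where the changes were 0.08 and 0.10 by the brightest probe, -0.16 and -0.05 by the second and -0.22 and -0.31 by the third.
CDK13 brightest probe, bases 1 to 30: aGAGGCAGAGGCAGAGggttaccatactga
CDK13 probe 3, bases 31 to 60: gtcgccaagagcgGCAGCAGCAGCAGCAGC

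The comparisons without WT drew on the same arrays as those above and are given as their own values. R50 against CDK2-/-, within slide 1, had 2 members called higher, CDK7 and CDK19 as described, where 17.2% of all tested genes were called higher, and 0 lower, where 23.7% were. At an unadjusted p under 0.05, limma and the methods' t-test also had 0 members lower in this comparison by their brightest probes. By its second probe CDK12 was called lower in limma, as given above (-0.35, adjusted p = 0.020). R50 against WT+NU6102, both treated with NU6102 but at states that differ in dose and duration, had CDK19 higher by 1.15 (adjusted p = 5.0e-05) against a background of 26.2%. In the same comparison 6 members were lower against a background of 33.9%, namely CCNT1 (-0.81), CDK8 (-0.76), CDK12 (-0.67), CDK7 (-0.37), CDK9 (-0.37) and CDK13 (-0.33), of which CDK7 was -0.12 and not called after quantile normalization (adjusted p = 0.090). CDK2-/- against WT+NU6102 had CDK19 higher by 0.29 (adjusted p = 0.0047) against 29% and 7 members lower against 31.5%. After median centring that CDK19 difference was 0.12 and not called (adjusted p = 0.18). The lower members were CDK8 (-0.94), CDK7 (-0.81), CCNT1 (-0.79), CDK12 (-0.56), CDK13 (-0.34), CDK9 (-0.32) and CCNH (-0.25). The call of CDK13 was lost without either WT+NU6102 array in both of these comparisons and, against R50, without either R50 array (adjusted p from 0.053 to 0.082). That of CCNH was lost without either CDK2-/- array or WT+NU6102 replicate 2 (adjusted p from 0.054 to 0.063), and after quantile normalization it was -0.043 and not called (adjusted p = 0.50).

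Partners of the members were counted in lists of genes by complex. Over all tested genes 28.9% were called higher and 24.2% lower in WT+NU6102 against WT. The shares were 19.2% and 16.7% in CDK2-/-, and 12.2% and 15.4% in R50. They apply to every list below, and several of the counts lie near them. Of 7 genes of the 7SK particle and P-TEFb recruitment, 2 rose and 3 fell in WT+NU6102, 1 rose and 1 fell in CDK2-/-, and 0 rose and 3 fell in R50. MEPCE, which caps the 7SK RNA, fell by 0.60 in CDK2-/- (adjusted p = 0.00054). PPM1G, a phosphatase that helps to release P-TEFb from 7SK, rose by 0.68 in WT+NU6102, and NUFIP1 fell by 0.64 there and rose by 0.36 in CDK2-/-. The median of the list was -0.02, 0.00463 and -0.21 in WT+NU6102, CDK2-/- and R50.

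The list of the super elongation complex had 4 of 9 genes higher and 0 lower in WT+NU6102. It had 1 higher and 1 lower in CDK2-/- and 0 higher and 1 lower in R50. ELL2, an elongation factor of this complex, rose by 0.64 in CDK2-/- (adjusted p = 0.00077), where EAF2, of the same list, fell by 0.43. EAF1 rose by 0.33 in WT+NU6102 and ELL3 fell by 0.38 in R50. Pausing and elongation factors had 9 of 16 higher and 2 lower in WT+NU6102, 3 and 3 in CDK2-/-, and 0 and 2 in R50. SUPT5H, the DSIF subunit that P-TEFb phosphorylates at pause release, fell by 0.28 in WT+NU6102 (adjusted p = 0.011) and rose by 0.91 in CDK2-/- (adjusted p = 0.00038). CTR9, a subunit of the PAF1 elongation complex, fell by 0.57 in CDK2-/- and by 0.43 in R50, and TCEA1, which rescues stalled polymerase, rose by 0.45 in WT+NU6102.

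Of 7 further genes of TFIIH, 3 rose in WT+NU6102 and 0 fell, 1 fell in CDK2-/- and 2 fell in R50, with 0 rising in either. ERCC3, the TFIIH translocase that opens promoter DNA, rose by 0.79 in WT+NU6102 (adjusted p = 0.0010). MNAT1, the assembly factor of CDK7 and cyclin H, fell by 0.29 in CDK2-/- (adjusted p = 0.032), in the group where CDK7 also fell. GTF2H3 fell by 0.34 in R50.

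Among the partners of CDK8 and CDK19, 1 of 4 rose and 1 fell in WT+NU6102, 1 rose and 2 fell in CDK2-/-, and 0 rose and 1 fell in R50. CCNC, the cyclin of both kinases, rose by 0.46 in WT+NU6102 (adjusted p = 0.0012) and fell by 0.31 in R50 (adjusted p = 0.012), the reverse of CDK19 in both. MED12, which activates the kinase in the module, fell by 0.17 in WT+NU6102. MED13, which tethers the module to core Mediator, rose by 0.32 and its paralogue MED13L fell by 0.29 in CDK2-/-. Of 26 other Mediator subunits 10 rose and 4 fell in WT+NU6102, 4 rose and 2 fell in CDK2-/-, and 2 rose and 1 fell in R50. MED26, the subunit that recruits elongation factors, rose by 0.81 in WT+NU6102, where MED18 fell by 0.66. MED17 rose by 0.58 in CDK2-/- and by 0.74 in R50. MED16 fell by 0.24 in CDK2-/- and MED10 by 0.23 in R50.

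Other transcription-linked and splicing-linked CDKs and cyclins had 4 of 8 higher and 3 lower in WT+NU6102, 2 and 0 in CDK2-/-, and 1 and 3 in R50. CCNK, the cyclin of CDK12 and CDK13, fell by 0.40 in R50 (adjusted p = 0.0056), where CDK12 fell as well. CDK10 rose by 0.45 in CDK2-/- and by 0.24 in R50, and its cyclin FAM58A rose by 0.51 in WT+NU6102. CCNL2, a cyclin of the splicing-linked CDK11 kinases, fell by 0.79 in WT+NU6102.

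Subunits of RNA polymerase II, the substrate of these kinases, had 9 of 12 higher and 1 lower in WT+NU6102, 1 and 3 in CDK2-/-, and 0 and 2 in R50. POLR2A, which carries the C-terminal domain, was the one that fell in WT+NU6102, by 0.47 (adjusted p = 0.0024). POLR2K rose by 0.92 there and by 0.67 in CDK2-/-. POLR2E fell by 0.32 in CDK2-/- and POLR2D by 0.33 in R50. Phosphatases of that domain, listed with the domain-binding proteins RPRD1A and RPRD1B, had 3 of 8 higher and 3 lower in WT+NU6102. The list had 2 and 1 in CDK2-/-, and 2 and 2 in R50. RPRD1B rose by 0.36 and CTDSP1 fell by 0.49 in WT+NU6102. CTDSPL rose by 0.38 in CDK2-/-, and CTDSP2 fell by 0.22 there and rose by 0.40 in R50, where RPAP2 fell by 0.29.

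The CDKs and cyclins of the cell cycle gave a comparison outside transcription. Of 12 tested, 9 rose and 2 fell in WT+NU6102, 2 rose and 4 fell in CDK2-/-, and 2 rose and 6 fell in R50. CDK6, a partner of D-type cyclins, rose by 1.37 in WT+NU6102 and by 1.61 in R50. CCNB3 fell by 1.12 in WT+NU6102, CCNE2 rose by 1.47 in CDK2-/-, and CCNA2 fell by 0.38 in R50. The median change in WT+NU6102 was 0.50 for this list, 0.40 for the polymerase subunits and 0.38 for the 10 transcriptional members. The upward balance in WT+NU6102 was thus also present in some lists outside the members. Other medians there were 0.21 for TFIIH, 0.19 for the super elongation complex, 0.17 for pausing and elongation factors and 0.12 for other Mediator subunits. The list of other transcription-linked and splicing-linked CDKs and cyclins had 0.03. Near or below 0 were the partners of CDK8 and CDK19 (-0.0033), the 7SK list (-0.02) and the phosphatase list (-0.05). No test set the lists against each other.

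**Figure D4:**
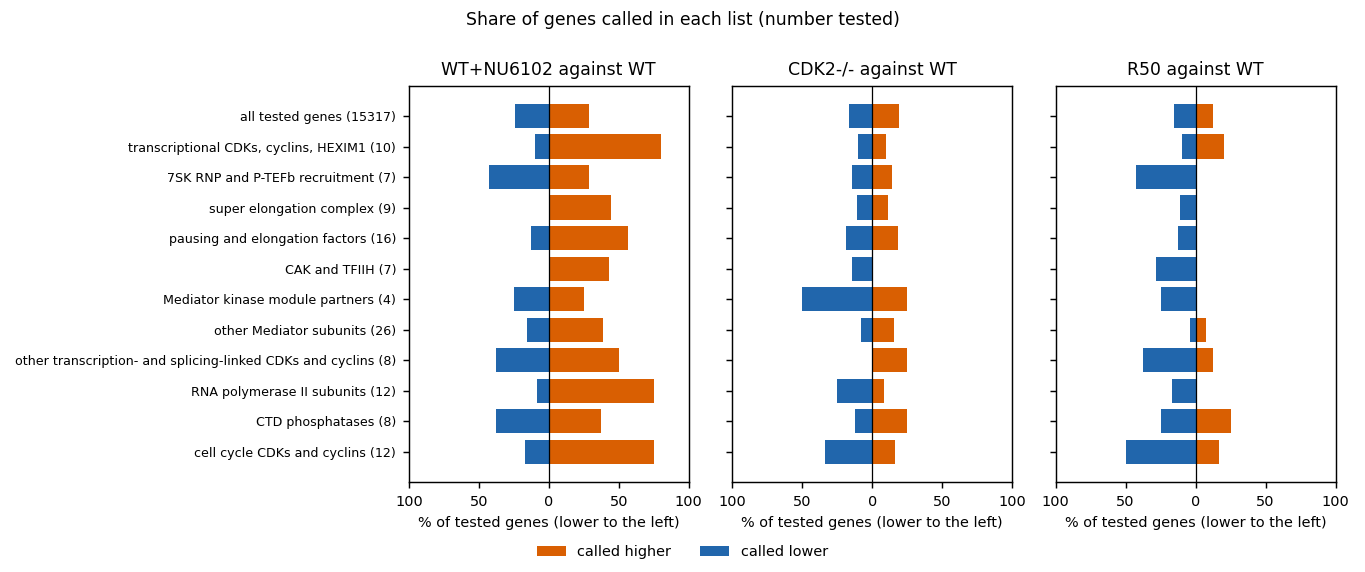
Percentage of the tested genes of each list (rows, with the number tested) that were called higher, to the right, or lower, to the left, against WT. Under NU6102 the transcriptional CDKs, cyclins and HEXIM1 reach 8 of 10 higher, and polymerase subunits and cell cycle CDKs 9 of 12 each. Of all tested genes 28.9% were higher there. The members reach 1 of 10 higher in CDK2-/-, beside 19.2% of all tested genes, and 2 of 10 in R50, beside 12.2%.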

How the data were processed

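Total RNA of 4 groups of HCT-116 cells, with 2 arrays each, was hybridized to 1-colour Agilent arrays. The authors scanned them and deposited, per spot, an intensity from Agilent Feature Extraction 11.5.1.1 (named in the submitters' processing notes), background-subtracted and not normalized between arrays. The authors also deposited log2 values made with GeneSpring GX, which were used as an alternative.

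Intensities were read in R 4.3.3 (data.table package, 1.17.8). Control and outlier spots were left out. The log2 signal had its array's 75th percentile subtracted, and spots of a probe were averaged. A probe was tested if at least 1 group had it well above background on both arrays, which held for 28677 probes, and 31 lacking a usable spot on an array were dropped. Limma 3.58.1 with moderated variances was fitted to all groups (two-sided, Benjamini-Hochberg over the tested probes, 6 contrasts and an F-test), after tests on simulated data. A gene was read by its brightest tested probe. The number of arrays limits the precision.

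The members and lists were chosen with earlier results of these data known. Named list genes are, per list and group against WT, the called gene with the greatest rise and fall among those well above background on all 4 arrays compared. A gene that this rule names and a probe sequence are not reported here. Markers were fixed lists, and 6 of the leukocyte genes had values on all arrays. Probe positions are those of the files (hg19), and promoters are RefSeq's (GRCh38.p14). Figures were drawn with Python 3.11.15 and matplotlib 3.10.9.

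Alternatives tried were normexp correction of the background (offset 50), quantile normalization, median centring, dim probes kept or filtered more strictly, the authors' log2 values, a trended prior variance, a minimum change of 1 log2 unit, a replicate block, fits of the 4 arrays compared, the methods' t-test and ANOVA, other probes of a gene, and leaving out each array. Replicate numbers did not pair the arrays: deviations of same-numbered arrays correlated between -0.03 and 0.05 over probes.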

Additional observations from a re-analysis of the deposited data

How the results depend on the processing

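A minimum change of 1 log2 unit left 0 members called in WT+NU6102, CDK2-/- and R50 against WT, in R50 against CDK2-/- and in CDK2-/- against WT+NU6102, and 1 in R50 against WT+NU6102, where limma without it called 9, 2, 3, 2, 8 and 7. The methods' t-test after Benjamini-Hochberg adjustment called 5, 0 and 0 members in WT+NU6102, CDK2-/- and R50 against WT and 1 in R50 against CDK2-/-, and unadjusted it called 10, 3, 4 and 2. The shares of all tested genes called under the alternative settings are not given here. The counts under them therefore describe the members alone and not a difference from other genes. With no filter on dim probes 1 member was called in CDK2-/- against WT, 1 in R50 against WT and 0 passed the F-test, beside 3 in the full fit. With the 4 arrays compared alone, 1 was called in R50 against WT. A trended prior variance gave 7 past the F-test. Leaving out each array gave 1 to 2 members in CDK2-/- against WT, with 1 without either WT or either CDK2-/- array. It gave 1 to 3 in R50 against WT, with 1 without either WT array or R50 replicate 1. It gave 0 past the F-test in all 8 fits, which have fewer arrays. Read by its dimmest probe, the CDK13 change in WT+NU6102 was -0.017 in place of 0.42. With the median in place of the 75th percentile, all-gene medians moved by 0.114 in WT+NU6102 against WT, -0.146 in R50 against WT+NU6102 and -0.172 in CDK2-/- against WT+NU6102, where 0 members were then higher and 8 lower. The cause of these shifts was not tested. With the replicate block, 9, 2, 3, 2, 8 and 7 members were called in the 6 comparisons, in the order above, and 2 passed the F-test, and it changed no call of the 60 member values. The numbers are not known to mark shared cultures. Normexp correction, the authors' log2 values and the stricter filter each moved 2 of the 60 calls, all of them gained.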

Other observations

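Genes taken as targets of the members were counted in 2 further lists. Their dependence on these kinases was not tested in these cells. Over all tested genes 28.9% were called higher and 24.2% lower in WT+NU6102 against WT, 19.2% and 16.7% in CDK2-/-, and 12.2% and 15.4% in R50, and several of the counts below lie near these shares. Of 15 short-lived transcripts listed as sensitive to CDK9 inhibition, 2 were called higher and 5 lower in WT+NU6102 against WT. In CDK2-/- 5 were higher and 1 lower, and in R50 1 was higher and 2 lower. FOS, an immediate early transcription factor, fell by 2.89 in WT+NU6102 (adjusted p = 8.4e-05) and rose by 0.35 in R50 (adjusted p = 0.038). Another 8 of the 15 were not called in WT+NU6102, MCL1 (0.16) and MYC (-0.10) among them. CCND1, which encodes cyclin D1, rose by 0.57 in WT+NU6102, EGR1 rose by 0.48 in CDK2-/-, and BIRC3, an inhibitor of apoptosis, fell by 1.496 in CDK2-/- and by 0.49 in R50. The list's median change was -0.08, 0.05 and -0.06 in the 3 groups. Of 12 DNA repair genes listed as sensitive to CDK12 loss, 3 were called higher and 1 lower in WT+NU6102. In CDK2-/- 2 were higher and 4 lower, and in R50 0 were higher and 6 lower. The medians were 0.12, -0.11 and -0.21 in the same order.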
